A study of Homo sapiens with 4 samples.

Results

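The 9 genes described here belong to the glutathione, thioredoxin and NRF2 systems, measured in Jurkat, a long-used human cell line that derives from T-cell acute lymphoblastic leukaemia. They were chosen by gene name (GCLC, GCLM, GSR, TXN, TXNRD1, NQO1, HMOX1, PRDX1, GPX4 and SRXN1). Of these 10, 9 were analysed, out of the 25122 genes of the deposited table. SRXN1 was not analysed here. RNA of 4 libraries was measured by mRNA sequencing: 2 of cells labelled wild type with a control hairpin (shcontrol), and 2 of cells with the same wild-type label and a short hairpin RNA against BDH1 (shBDH1), the mitochondrial enzyme that interconverts acetoacetate and 3-hydroxybutyrate. The labels name a single shBDH1 treatment, and the sources used here do not give the hairpin's sequence, the time of exposure or whether libraries of a group were separate cultures. The p-values therefore reflect scatter between libraries of a group, which could be technical only. Those of limma lean mostly on the scatter of genes of like intensity (25.8 prior against 2 residual degrees of freedom). They rest little on a gene's own 2 libraries per group. The study's description asks which genes act downstream of BDH1; the comparison below is shBDH1 against shcontrol.

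Glutathione is a small thiol peptide made from glutamate, cysteine and glycine, and the thioredoxin system is the parallel protein route that hands electrons from NADPH to oxidized targets. NRF2, the protein of NFE2L2, is a transcription factor that KEAP1 and the ubiquitin ligase scaffold CUL3 keep low; oxidants relieve that brake, and NRF2 with a small MAF partner then binds antioxidant response elements near genes of both routes. BACH1 competes with NRF2 at such elements.

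Values are normalized counts, that is, the reads of a gene after the authors' division by a size factor of the library. The libraries held between 28681511 and 29453383 reads in genes. BDH1 itself, the check of the labels, had 1725 and 1911 normalized counts in shcontrol and 1221 and 1412 in shBDH1 (log2 fold change -0.47, SE 0.08, limma adjusted p = 1.5e-05). Its direction held in all 15 alternative settings, and its call held in 14 and was lost in 1. Log2 fold changes compare shBDH1 with shcontrol as log2(value + 1), a scale that shrinks changes at low counts, and SE is the standard error. A gene passed at a limma p under 0.05 after Benjamini-Hochberg adjustment over all 19301 genes tested. All 8 markers of a T cell leukaemia line were present, and 5 of them rose and 1 fell. Over all genes tested, 20.3% rose and 20.8% fell, shares that also stand beside the marker counts that follow. Markers of B cells summed to 214 and 213 normalized counts in the shcontrol libraries against 674 and 658 in the shBDH1 libraries (1 of 2 rose, CD79A), those of natural killer markers 65.7 and 72.6 against 237 and 170.0 (2 of 2 tested rose, NKG7 and NCAM1, the latter not without shBDH1 replicate 1, limma adjusted p = 0.152), those of myeloid markers 51.3 and 53.1 against 66.8 and 46.3 (the 1 tested did not pass), and those of fibroblast and epithelial markers 607 and 604 against 706 and 694 (1 of 2 rose). KLRD1, a further natural killer marker, had 9.24 and 8.18 counts in shcontrol and 5.90 and 11.1 in shBDH1, and was not tested. With the intensity trend left out of limma's variance prior, 0 natural killer markers rose. LYZ, the myeloid lysozyme gene, was at 0 in 3 libraries. The part of these markers in the results below was not tested, and in such bulk RNA fewer cells of a type and less RNA per cell cannot be told apart.

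Of the 9 genes, 3 rose in shBDH1 (GSR, PRDX1 and GCLC), none fell, and 6 did not pass. All 9 met the minimum mean of 10 normalized counts. By limma, none fell at an unadjusted p under 0.05 either (0 genes), and edgeR and DESeq2 called 3 higher and 0 lower. Over all genes tested 20.3% rose and 20.8% fell, and among the 7227 genes with a mean of at least 1000, where 7 of the 9 lie, 26.2% rose and 34.7% fell. The median log2 fold change of the 9 was 0.01, and that of all genes tested was -0.01. Groups did not overlap for 5 of the 9, against 69.0% of all genes tested.

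**Figure D1:**
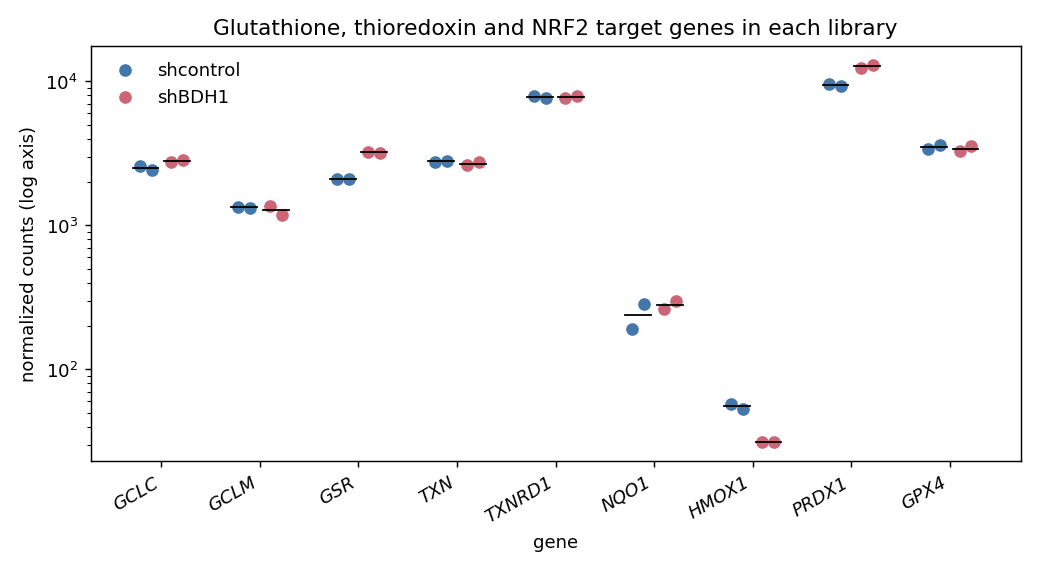
Normalized counts (log axis) of the 9 genes in each of the 4 libraries; points are libraries, black lines group means. GSR and PRDX1 sit clearly higher in both shBDH1 libraries, GCLC slightly higher, and HMOX1, at 57.5 counts or fewer, lower.

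Promoter sequence is shown for the genes whose window holds the core of an antioxidant response element, because such elements are what NRF2 binds and its mRNA rose in shBDH1. The windows run from 250 bases before to 50 bases after a RefSeq start site (GRCh38.p14), and 6 of the 9 genes matched the RefSeq promoter table with 9 windows in all; GSR, HMOX1 and PRDX1 have no entry. The motif searched was TGACNNNGC on both strands. It was found in 3 of the 9 windows, belonging to GCLM and TXNRD1, and in 13.3% of all 35116 promoter windows. It was also found in KEAP1. Sequences are written 5′ to 3′ on the gene's own strand, with the matches in capitals; a match on the other strand of the gene appears as its reverse complement.
GCLM, chr1:93909431-93909489, minus strand: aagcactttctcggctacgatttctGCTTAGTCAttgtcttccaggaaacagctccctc
TXNRD1 upstream start, first match, chr12:104215655-104215713, plus strand: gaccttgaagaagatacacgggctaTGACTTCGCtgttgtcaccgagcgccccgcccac
TXNRD1 upstream start, second match, chr12:104215746-104215804, plus strand: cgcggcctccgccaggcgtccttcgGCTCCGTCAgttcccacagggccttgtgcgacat
TXNRD1 downstream start, chr12:104286905-104286963, plus strand: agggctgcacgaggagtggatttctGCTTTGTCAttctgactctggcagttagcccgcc
KEAP1, chr19:10502769-10502827, minus strand: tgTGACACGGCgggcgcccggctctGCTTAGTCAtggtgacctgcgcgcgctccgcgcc

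The match in GCLM lies from -34 to -26 relative to its start site, and 1 of the matches in KEAP1, from -31 to -23, has the same 9 letters, TGACTAAGC. The 3 matches in TXNRD1 differ from each other in the 3 free positions: TGACTTCGC and TGACGGAGC at the upstream start and TGACAAAGC at the downstream one. A match is a description of the letters, not a site that was tested. No match was found in the windows of GCLC, GPX4, NQO1, TXN or NFE2L2, which says only that these letters are not in those windows.

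Glutamate-cysteine ligase makes the rate-limiting bond of glutathione, and only its catalytic chain passed the test. GCLC, that chain, had 2587 and 2425 normalized counts in shcontrol and 2773 and 2842 in shBDH1. Both shBDH1 libraries lay above both shcontrol ones, by 12.0% on average (0.16 on the log2 scale, SE 0.06, limma adjusted p = 0.025). This call was lost without shcontrol replicate 2 (limma adjusted p = 0.26) or without shBDH1 replicate 2 (0.104). GCLM, the modifier chain that makes the enzyme more efficient, had 1336 and 1332 in shcontrol and 1355 and 1191 in shBDH1, so its groups overlapped; its log2 fold change was -0.07 with a 95% interval from -0.23 to 0.09. Per kilobase of annotated exon, GCLC stood at 1.21 and 1.14 times GCLM in shcontrol and at 1.28 and 1.496 times in shBDH1. GCLC lies on chromosome 6 (53497341 to 53616970, minus strand), where it shares 7 exon bases with an antisense gene and 529 with a noncoding gene on its own strand, and GCLM on chromosome 1 (93885205 to 93909456, minus strand). The ratios did not overlap between groups, but 2 libraries against 2 cannot reach an exact permutation p under 0.333.

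GSR, the reductase that returns oxidized glutathione to its reduced form with NADPH, had the highest fold change of the 9. It had 2087 and 2108 normalized counts in shcontrol and 3255 and 3175 in shBDH1, so the gap between groups was far wider than that between libraries of a group. The mean went from 2098 ± 14.8 to 3215 ± 56.9 (SD, n = 2 each), 53.2% more. The log2 fold change was 0.62 (SE 0.06, limma adjusted p = 7.7e-10) and lay between 0.60 and 0.66 in the 15 alternative settings, all of which called it. The gene (ENSG00000104687) spans 30678061 to 30727999 on the minus strand of chromosome 8.

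PRDX1 is an abundant cytosolic peroxiredoxin that reduces hydrogen peroxide and is recycled by thioredoxin. It had 9533 and 9229 normalized counts in shcontrol and 12362 and 13049 in shBDH1. Both shBDH1 libraries stood above both shcontrol libraries, with a mean of 12705 ± 486 against 9381 ± 215 (SD, n = 2 each), 35.4% more (0.44 on the log2 scale, SE 0.04, limma adjusted p = 2.9e-10). All 15 alternative settings called it, between 0.40 and 0.48. On chromosome 1, from 45511036 to 45523047, PRDX1 shares 379 exon bases with MMACHC, a cobalamin-processing gene on the opposite strand. MMACHC had 3251 and 3256 counts in shcontrol and 3474 and 3933 in shBDH1 (0.18 on the log2 scale, limma adjusted p = 0.011). The sources used here do not say whether reads were counted by strand, and the part of MMACHC in the value of PRDX1 was not tested.

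Neither TXN nor TXNRD1 passed the test. TXN, the cytosolic thioredoxin itself, had 2761 and 2817 normalized counts in shcontrol and 2612 and 2749 in shBDH1, which lay just below without passing (log2 fold change -0.06, 95% interval -0.18 to 0.06). TXNRD1, the selenoprotein that reduces thioredoxin, had 7935 and 7654 in shcontrol and 7723 and 7928 in shBDH1. Its groups overlapped and its log2 fold change of 0.01 had an interval from -0.08 to 0.09, the tightest of the genes that did not pass. TXN lies on chromosome 9 (110243811 to 110256640, minus strand) and TXNRD1 on chromosome 12 (104215779 to 104350305, plus strand). The ratio of PRDX1 to TXN per kilobase was 2.59 and 2.46 in shcontrol and 3.55 and 3.56 in shBDH1, groups that did not overlap. TXNIP, which binds and inhibits thioredoxin, had 3175 and 3362 against 3098 and 3424, with a log2 fold change of -0.00 (SE 0.06).

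GPX4, the selenoenzyme that uses glutathione to reduce lipid peroxides in membranes, had 3420 and 3624 normalized counts in shcontrol and 3267 and 3558 in shBDH1. It lies on chromosome 19 (1103926 to 1106791, plus strand). The groups overlapped, and the log2 fold change of -0.05 had a 95% interval from -0.16 to 0.07. GCLM, TXN, TXNRD1 and GPX4 were thus the 4 genes with a log2 fold change under 0.1 in size.

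NQO1 and HMOX1, which serve widely as read-outs of NRF2, were the lowest of the 9 and the least precisely measured. NQO1, a quinone reductase, had 192 and 283 normalized counts in shcontrol and 261 and 298 in shBDH1; the groups overlapped and the log2 fold change of 0.26 had an interval from -0.11 to 0.62. Shcontrol replicate 1 was the low library, and without shcontrol replicate 2 the value was 0.54 (limma adjusted p = 0.037), while without shcontrol replicate 1 it was -0.02. An antisense gene shares 575 exon bases with NQO1 and had 33.2 to 50.1 counts. HMOX1, the inducible haem oxygenase, had 57.5 and 53.1 in shcontrol and 31.5 and 31.2 in shBDH1, groups that did not overlap. The log2 fold change of -0.80 (SE 0.40, 95% interval -1.62 to 0.02) did not pass (limma adjusted p = 0.11). NQO1 lies on chromosome 16 (69706996 to 69726951, minus strand) and HMOX1 on chromosome 22 (35380361 to 35394214, plus strand), by the GENCODE annotation of GRCh38 used for all positions of genes here. HMOX2, the constitutive enzyme, stood far higher at 1060 and 1172 against 994 and 1039 and did not pass either (limma adjusted p = 0.22).

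**Figure D2:**
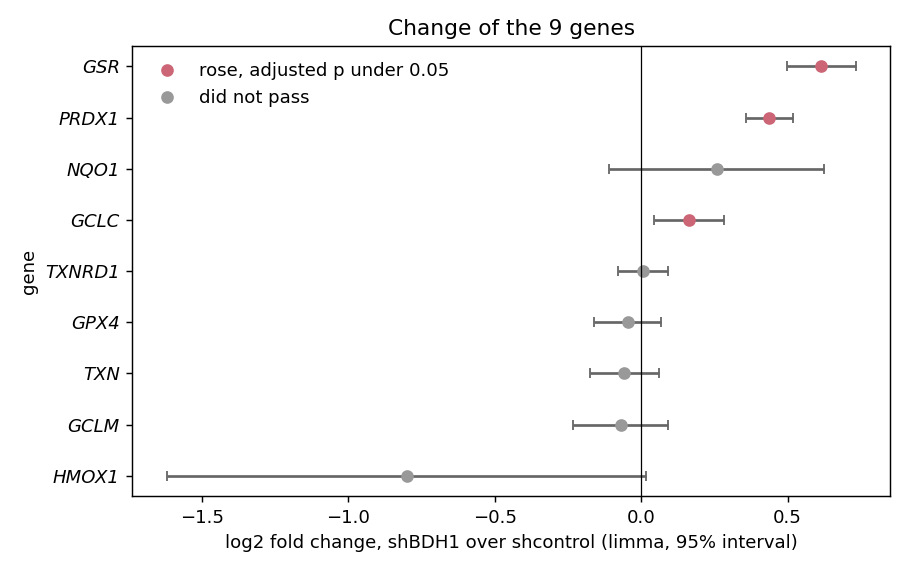
Log2 fold change of the 9 genes, shBDH1 over shcontrol, with 95% intervals from limma; red points passed the test. The intervals of GSR (0.62), PRDX1 (0.44) and GCLC (0.16) lie above 0, and that of HMOX1 runs from -1.62 to 0.02.

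The order of levels was the same in both groups. Per kilobase of annotated exon, shcontrol means ran from PRDX1 (6163 normalized counts per kilobase) over TXN (2442), GPX4 (1745), TXNRD1 (1162), GSR (558), GCLC (290), GCLM (246) and NQO1 (73.0) to HMOX1 (23.0). In shBDH1 they were 8348, 2348, 1690, 1167, 855, 325, 235, 85.9 and 13.02 in that order. Libraries of neighbouring genes in this order did not overlap in either group. Together the 9 genes took 0.102% and 0.1003% of all normalized counts in shcontrol and 0.116% and 0.120% in shBDH1.

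Of 18 genes for NRF2 and its regulators, 12 rose and 3 fell, with a median log2 fold change of 0.36. For this list and those below, the shares over all genes tested were 20.3% that rose and 20.8% that fell. The lists were chosen with earlier results of these data known. NFE2L2 (NRF2) had 1549 and 1626 normalized counts in shcontrol and 2101 and 1956 in shBDH1 (0.35 on the log2 scale, SE 0.07, limma adjusted p = 0.00011). Genes that restrain it rose as well. KEAP1, the adaptor that marks NRF2 for degradation, went from 886 and 1012 to 1273 and 1317 (log2 fold change 0.45, SE 0.08). CUL3, its ligase scaffold, went from 2025 and 2129 to 3215 and 2862 (0.55, SE 0.06). BACH1, the haem-sensing repressor of the same elements, went from 1144 and 1143 to 1624 and 1746 (0.56, SE 0.07), and its lymphoid relative BACH2 rose by 0.44.

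Partners and relatives of NRF2 went both ways. MAFK, a small MAF partner, fell from 5069 and 5203 to 3309 and 3178 normalized counts (log2 fold change -0.66, SE 0.05, limma adjusted p = 9.6e-12). Of the other small MAF genes, MAFG rose by 0.43 and MAFF (0.36) did not pass. MAFG and MAFF were named after their values were seen. NFE2L1, a related factor that controls proteasome genes, fell by 0.25, and DPP3, which binds KEAP1, by 0.48. RXRA, a nuclear receptor, rose from 160 and 185 to 384 and 372 (log2 fold change 1.13). Per kilobase, NFE2L2 stood at 1.10 and 1.01 times KEAP1 in shcontrol and at 1.04 and 0.934 times in shBDH1, an overlap. Against BACH1 it stood at 1.75 and 1.84 times in shcontrol and lower, at 1.67 and 1.45 times, in shBDH1. With the intensity trend left out of limma's variance prior, 4 of the 18 rose and 1 fell, and NFE2L2 (limma adjusted p = 0.068) and KEAP1 (0.068) did not pass.

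**Figure D3:**
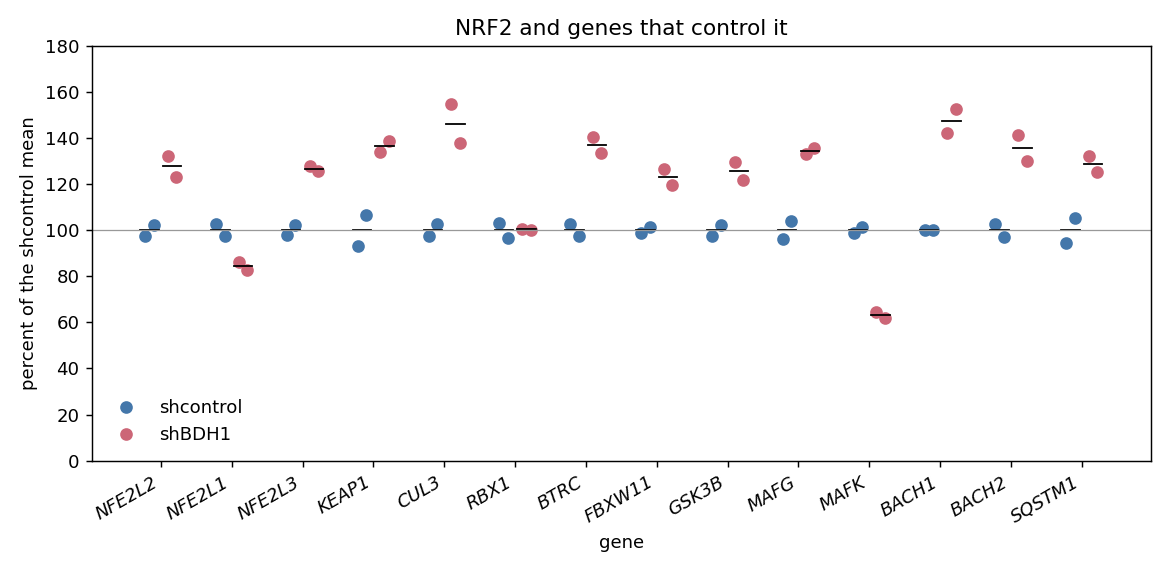
Counts of NRF2 (NFE2L2) and 13 genes of its control in each library, as percent of the shcontrol mean; points are libraries, black lines group means. NFE2L2, KEAP1, CUL3 and BACH1 lie above 100% in both shBDH1 libraries, MAFK and NFE2L1 below.

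The genes around GCLC and GSR went both ways. Of 17 genes tested for glutathione synthesis, breakdown and cystine supply, 3 rose, 6 fell and 8 did not pass, with a median log2 fold change of -0.19; GSR and GCLC are among the 3 that rose. SLC7A11, the cystine carrier and itself a known NRF2 target, had 1612 and 1678 normalized counts in shcontrol and 885 and 1022 in shBDH1 (log2 fold change -0.79, SE 0.08, limma adjusted p = 4.9e-09). SLC3A2, its partner chain, fell by 1.32, from 13521 and 13426 to 5355 and 5467. GSS, the synthetase that finishes glutathione, had 1807 and 1982 against 1471 and 1380 (log2 fold change -0.41, SE 0.07). CBS, the entry step from homocysteine towards cysteine, fell by 0.83. CHAC1, which cleaves glutathione, was the 1 gene of breakdown to fall, by 1.79, to 28.8% of its shcontrol mean. OPLAH, which recycles the 5-oxoproline left by that cleavage, rose by 0.48 and was named after its values were seen. The ratio of GSR to GSS per kilobase was 1.90 and 1.75 in shcontrol and 3.63 and 3.78 in shBDH1.

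**Figure D4:**
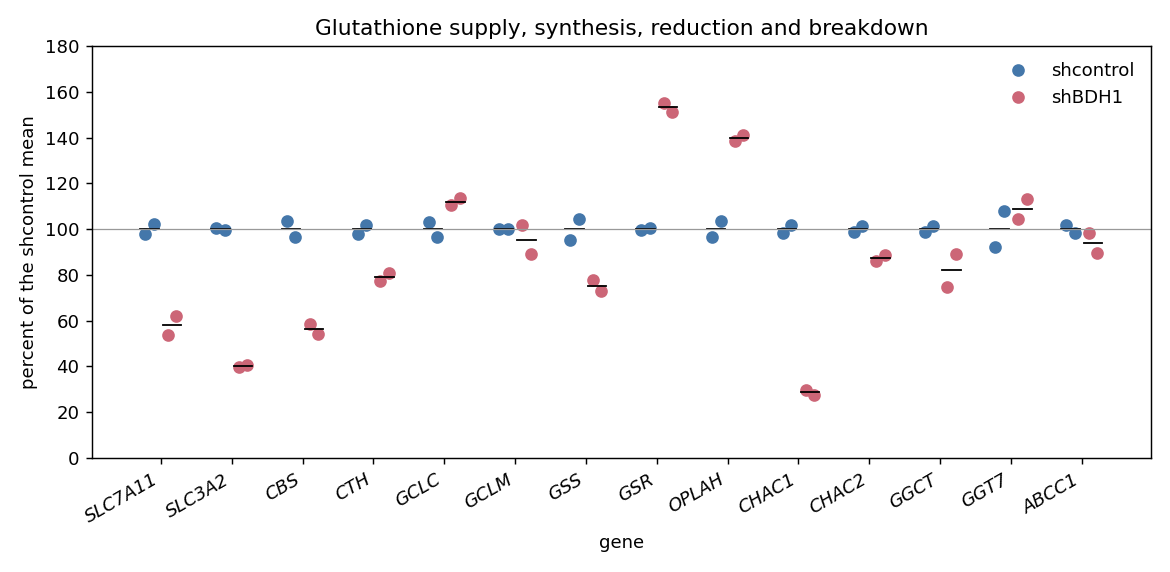
Counts of 14 genes of cystine supply, glutathione synthesis, reduction, breakdown and export in each library, as percent of the shcontrol mean; points are libraries, black lines group means. SLC7A11, SLC3A2, CBS, GSS and CHAC1 lie below 100% in both shBDH1 libraries, and GSR lies above it (53.2% more on average).

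Relatives of PRDX1 and TXNRD1 did not share 1 direction. Of 18 thioredoxin, peroxiredoxin and reductase genes tested, 5 rose and 2 fell, with a median of 0.00; 1 fell without shcontrol replicate 1, shcontrol replicate 2 or shBDH1 replicate 2. PRDX4, the peroxiredoxin of the endoplasmic reticulum, went from 910 and 885 to 1146 and 1101 normalized counts (log2 fold change 0.32, SE 0.08), and PRDX5 rose by 0.22. PRDX3, the mitochondrial form, fell from 5970 and 6240 to 5152 and 5652 (log2 fold change -0.18, SE 0.05, limma adjusted p = 0.004), a call lost without shcontrol replicate 2 (0.075) or shBDH1 replicate 1 (0.085). TXNRD3, a reductase best known from testis, fell by 0.28 (lost without shcontrol replicate 1, limma adjusted p = 0.064, or shBDH1 replicate 2, 0.093), and NXN, nucleoredoxin, rose by 0.73. The PRDX5 call was lost without shBDH1 replicate 2 (0.070).

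Relatives of GPX4 and the enzymes that use glutathione were split as well. Of 21 tested, 3 rose and 5 fell (median -0.05), and DESeq2 called 5 of the 21. Without shBDH1 replicate 1, 2 rose and 2 fell. GLO1, the glyoxalase that clears methylglyoxal with glutathione, fell most, from 4818 and 4399 to 1671 and 1775 normalized counts (log2 fold change -1.42, SE 0.06, limma adjusted p = 3e-17). GLRX, the cytosolic glutaredoxin, rose by 0.31, and GSTZ1, a transferase of tyrosine breakdown, fell by 0.53, a call lost without shBDH1 replicate 1 (limma adjusted p = 0.0595). GSTP1, a glutathione transferase, went from 7078 and 7270 to 7799 and 8165 (0.15), and lost its call without shcontrol replicate 1 (limma adjusted p = 0.080). GLRX5, of iron-sulphur assembly, fell by 0.24, which was lost without shcontrol replicate 1 (0.073) or shBDH1 replicate 2 (0.16).

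Among 28 other genes known as NRF2 targets, 6 rose, 7 fell and 15 did not pass, with a median log2 fold change of 0.01. MT2A, a metallothionein, rose from 252 and 265 to 640 and 631 normalized counts (log2 fold change 1.30, SE 0.13), and IDH1, a cytosolic source of NADPH, rose by 0.65. SLC6A9, a glycine carrier, fell from 819 and 904 to 372 and 275 (-1.43, SE 0.13), and TKT, of the pentose phosphate route, fell by 0.37. The ferritin chains FTH1 (0.03) and FTL (0.02) did not pass; both were named after their values were seen.

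TXNRD1 and GPX4 are selenoproteins, and genes linked to selenocysteine insertion went both ways. Of 23 selenoproteins and genes of that machinery, 7 rose and 8 fell, with a median of 0.01. Those that rose numbered 3 without shcontrol replicate 2 and 4 without shBDH1 replicate 1, and without shBDH1 replicate 2 5 rose and 5 fell. SECISBP2, which binds the element that recodes UGA, fell from 4636 and 4446 to 3112 and 3212 normalized counts (log2 fold change -0.52, SE 0.05), PSTK, a kinase of the selenocysteine transfer RNA, fell by 0.43, and SEPHS1, a relative of selenophosphate synthetase, by 0.50. SELENOT, of the endoplasmic reticulum, rose by 0.57, and LRP8, a receptor that takes up selenoprotein P, by 0.29. EEFSEC, the elongation factor for selenocysteine, rose by 0.20 (limma adjusted p = 0.043), and SEPHS2, the selenophosphate synthetase, had a log2 fold change of 0.14 that did not pass (0.058); both were named after their values were seen. DESeq2 called 11 of the 23.

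The remaining lists touch the same chemistry. Of 16 genes of ferroptosis and lipid peroxidation, 4 rose and 2 fell (median 0.07): ACSL4, which loads membranes with polyunsaturated fatty acids, rose by 0.51, the iron exporter SLC40A1 by 0.63, IREB2 by 0.41 and the transferrin receptor TFRC by 0.28, while DHODH fell by 0.28; 1 of the 16 fell without shcontrol replicate 2 or shBDH1 replicate 1. Of 15 genes of haem synthesis and breakdown, 1 rose and 5 fell (median -0.13); without shcontrol replicate 1, 3 fell, and without shBDH1 replicate 2, 3 rose and 4 fell. FECH, which inserts iron into haem, fell by 0.48, UROD by 0.42 and UROS by 0.24, and BLVRA, which acts after haem oxygenase, rose by 0.44; UROS was not called without shcontrol replicate 1 (limma adjusted p = 0.054) or shBDH1 replicate 1 (0.072). Of 9 genes that make or remove superoxide and hydrogen peroxide, 2 rose and 2 fell (median 0.07), which became 1 and 1 without shcontrol replicate 1, 2 and 0 without shcontrol replicate 2, 1 and 0 without shBDH1 replicate 1, and 1 and 2 without shBDH1 replicate 2. DESeq2 called 1 of the 9: RAC2, the small GTPase of the phagocyte oxidase, rose by 0.78. SOD1 (-0.13) passed in 7 of 15 alternative settings, DUOX1 (-0.57) in 10, and NCF4, at 1.03 and 5.11 counts in shcontrol, in 8 of 13; PARK7 (-0.07) did not pass.

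**Figure D5:**
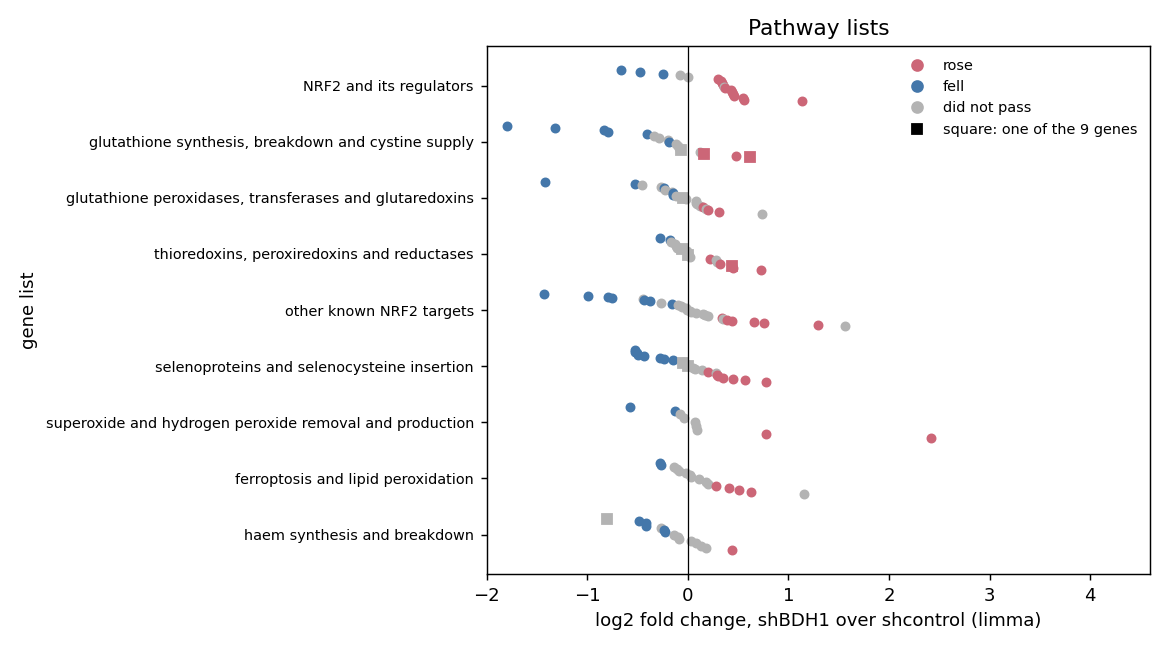
Log2 fold change (limma) of each tested gene in 9 pathway lists; red rose, blue fell, grey did not pass, and squares are the 9 genes. Points of the NRF2 control list lie mostly to the right of 0 (12 rose, 3 fell); the other lists hold points on both sides.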

How the data were processed

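The deposited values are a normalized signal, gene by library: the authors' read counts over a size factor, as the numbers themselves show, since 100% of each library's values were whole multiples of 1 step (tolerance 0.01 reads). The submitters' processing notes list HISAT2 2.2.1, FastQC 0.11.9 and the hg38 build. The counter, annotation, strand setting and size-factor tool: not given in the sources used here. No column of library values was left unused.

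Genes with a mean of at least 10 entered limma 3.58.1 on log2(value + 1) with an intensity trend in the variance prior (2 residual and 25.8 prior degrees of freedom), Benjamini-Hochberg adjusted over all 19301 genes. edgeR 4.0.16 and DESeq2 1.42.0 ran on recovered reads as alternatives (R 4.3.3). The main limma fit and an edgeR fit were tested on simulated data in which far fewer genes changed than here. The DESeq2 fit was not tested in this way. Positions and exon lengths come from GENCODE 29 (GRCh38, the assembly of hg38). A gene name carried by several rows was kept only from a row whose ID RefSeq pairs with it. SOD2, carried by 2 rows, has no value in the lists here.

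The 10 genes and all lists were chosen with earlier results of these data known. Named genes are the 9 present, BDH1, 5 fixed genes (NFE2L2, KEAP1, NFE2L1, BACH1 and TXNIP) and up to 5 further genes with the smallest p of each list; others are said to be. HMOX2 was named after its values were seen. Some genes that the rule names are not reported here.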

Additional observations from a re-analysis of the deposited data

How the results depend on the processing

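GSR and PRDX1 kept their direction and call in all 15 alternative settings. GCLC kept its direction in all 15 and its call in 11; the log2 fold change of GCLC was not called without the intensity trend (0.1642, limma adjusted p = 0.195), without the filter on low values (0.1642, limma adjusted p = 0.054), or in 2 of 4 fits that leave out 1 library, over which it ran from 0.1175 to 0.2108; the library left alone in its group was assumed to vary like the other group. Leaving out 1 library each moved the log2 fold change of NQO1 between -0.02113 and 0.5366. Without the trend, HMOX1 passed (-0.80, limma adjusted p = 0.030), so that 1 of the 9 fell, and the genes that rose over all genes tested numbered 1598 and the genes that fell over all genes tested 1246, against 3910 and 4020; the cause was not tested. The lists shrank too, to 2 rose and 4 fell for glutathione synthesis, 1 and 1 for its peroxidases and transferases, 1 and 0 for thioredoxins, 3 and 6 for other NRF2 targets, and 2 and 2 for selenoproteins. GCLM, GPX4 and NQO1 changed sign in 1 setting each and TXNRD1 in 2, passing in none of these. HMOX1 has no value at a minimum mean of 100. The same-numbered libraries of the groups did not deviate together (correlation of deviations 0.001 over 19301 genes); with the replicate number as a block, 4108 genes rose and 4217 fell, and 3 of the 9 genes rose and 0 fell. Scaling moved the median of all genes by at most 0.04. Low counts go with wider errors: the median SE was 0.118 over all genes and 0.064 at a mean of 1000 or more, and that of HMOX1 was 0.40.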
